A study of Mus musculus with 9 samples.

Results

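Transcripts of 10 enzymes that break down branched-chain amino acids were measured in mouse kidney by RNA sequencing: Bcat2, Bckdha, Bckdhb, Dbt, Ivd, Mccc1, Mccc2, Hibch, Aldh6a1 and Pcca. They were taken by gene symbol from the 22637 symbols in the deposited tables, and all 10 were among the 17315 genes that passed the filter on low counts and were tested. The 9 libraries came from kidneys of 9-week-old mice of the 129X1/SvJ strain, in 3 groups of 3. Wild-type mice (WT) had no treatment, Col4a3 -/- mice were given PBS (KO_PBS), and Col4a3 -/- mice received antimiR-21 (KO_antimiR21), which blocks the microRNA miR-21. Col4a3 encodes a chain of type IV collagen of the glomerular basement membrane, and mice without it are used as a model of Alport syndrome, a progressive kidney disease. The labels give neither the dose nor how the null allele was made. They also do not state that each library is a different mouse, so every p-value measures the spread between libraries. Within each group the libraries differed well beyond counting error (chi-square per gene of 29.6 to 132 between pairs), and WT held both sexes.

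Leucine, isoleucine and valine are broken down in mitochondria. A transaminase first removes the amino group, and the branched-chain ketoacid dehydrogenase (BCKDH) complex then commits the resulting ketoacids to oxidation; separate enzymes take the 3 carbon skeletons on to acetyl-CoA, acetoacetate and succinyl-CoA, which feed the tricarboxylic acid (TCA) cycle. The complex is switched off by a kinase and switched on by a phosphatase, and the kidney's proximal tubule, rich in mitochondria, is a site of amino acid reabsorption and oxidation.

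In wild-type kidney the level of the 10 transcripts, as normalised counts (CPM, counts scaled to the library total) per kilobase of transcript, ran from 212 ± 65.7 for Aldh6a1 to 27.8 ± 8.95 for Dbt (SD, n = 3). Aldh6a1, methylmalonate semialdehyde dehydrogenase of the valine branch, and Bckdha, the E1 alpha subunit of the complex at 191 ± 11.4, were the most abundant, and their libraries overlapped. All 3 wild-type libraries of Bckdha, at 178 to 200.1, lay above all those of the third, Mccc2, at 65.1 to 89.6. Below that gap the order was Mccc2, Ivd, Bcat2, Bckdhb, Pcca, Mccc1, Hibch and Dbt, and each of these overlapped its neighbour in the order.

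The 10 transcripts moved together across the libraries, and their promoters were searched for 5 common short elements in the 250 bases before each RefSeq transcription start (mouse build GRCm38.p6), on both strands and after the expression values were known. Promoters of 9 of the 10 genes were matched, Dbt being the exception. The CCAAT box (CCAAT, or ATTGG on the other strand) was present in 6 of 9 (Bckdhb, Ivd, Mccc1, Mccc2, Pcca and Aldh6a1), against 37.5% of all 27025 genes with a promoter sequence, and 5 of the 9 had at least 2 matches, against 11.5% of all genes. The GC box (GGGCGG) was found in 4 of 9 against 35.4% of genes, the nuclear receptor element AGGTCA in 3 of 9 against 15.8%, its extended form AAGGTCA in 0 of 9 against 4.70%, and the E-box CACGTG in 1 of 9 against 6.86%. The shares are over all genes with a promoter sequence, whether or not their transcripts were tested or moved the same way. Any relation of these elements to the shared movement was not tested. A match describes letters in the window and is not a tested binding site. The 5 promoters with repeated CCAAT matches are shown as the 150 bases that end just before the start site, 5′ to 3′ on the gene's strand, with each CCAAT or ATTGG in capitals. They lie at chr2:118861844-118861993 on the plus strand (Ivd), chr3:36000679-36000828 on the minus strand (Mccc1), chr13:100015640-100015789 on the minus strand (Mccc2), chr9:83924987-83925136 on the plus strand (Bckdhb) and chr12:84451025-84451174 on the minus strand (Aldh6a1).

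Ivd: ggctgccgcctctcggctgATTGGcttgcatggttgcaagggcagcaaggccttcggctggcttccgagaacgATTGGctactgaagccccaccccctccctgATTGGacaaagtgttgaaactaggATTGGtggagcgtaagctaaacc

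Mccc1: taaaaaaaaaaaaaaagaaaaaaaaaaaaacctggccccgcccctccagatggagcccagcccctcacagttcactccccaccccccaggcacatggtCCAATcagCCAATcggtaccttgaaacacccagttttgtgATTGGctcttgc

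Mccc2: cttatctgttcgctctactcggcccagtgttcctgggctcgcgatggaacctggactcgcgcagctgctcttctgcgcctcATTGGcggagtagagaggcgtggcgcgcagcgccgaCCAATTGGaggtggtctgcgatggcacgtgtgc

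Bckdhb: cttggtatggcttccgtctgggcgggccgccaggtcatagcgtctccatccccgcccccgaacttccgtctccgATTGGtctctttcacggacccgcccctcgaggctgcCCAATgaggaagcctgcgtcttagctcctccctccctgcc

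Aldh6a1: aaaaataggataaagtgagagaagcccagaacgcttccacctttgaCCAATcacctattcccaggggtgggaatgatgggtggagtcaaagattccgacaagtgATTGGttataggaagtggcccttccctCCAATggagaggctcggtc

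Ivd carried 4 copies in this stretch, all in the ATTGG orientation. Mccc1 had 3, of which a pair of CCAAT copies stood 3 bases apart, and Mccc2 had 3, of which a CCAAT and an ATTGG overlap by 2 bases. Bckdhb showed 2 and Aldh6a1 3, the remaining Aldh6a1 match lying farther upstream.

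Library totals were 26448275 to 31786624 expected counts. Col4a3 itself, the targeted gene, was 257 to 371 CPM in WT, 44.3 to 94.3 in KO_PBS and 70.6 to 138 in KO_antimiR21, so both knockout groups lay below WT, with transcript still counted. Summed counts of 4 Y-linked genes were 0.928 and 1.49 CPM in WT 1 and WT 3 and 102 to 118 CPM elsewhere, so WT held 2 female libraries and 1 male one and all knockout libraries were male. KO_PBS library 1 stood apart: it was the lowest of all 9 libraries for each of the 10 enzymes. File names carry an unexplained code, which was L5 for all KO_antimiR21 libraries and KO_PBS 3 and L4 for the rest.

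The first comparison asked how the knockout kidney given PBS differed from wild type. Of the 10 enzymes 9 fell and none rose, at a Benjamini-Hochberg adjusted p under 0.05 in edgeR's quasi-likelihood test, and the exception, Dbt, had an adjusted p of 0.055 in edgeR. Over all tested genes, 9.85% were called lower and 14.6% higher in this comparison. The median log2 fold change of the 10 was -1.41 against -0.03 over all tested genes. In all 10 the highest KO_PBS library was below the lowest WT library, which was so for 20.5% of all tested genes.

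**Figure D1:**
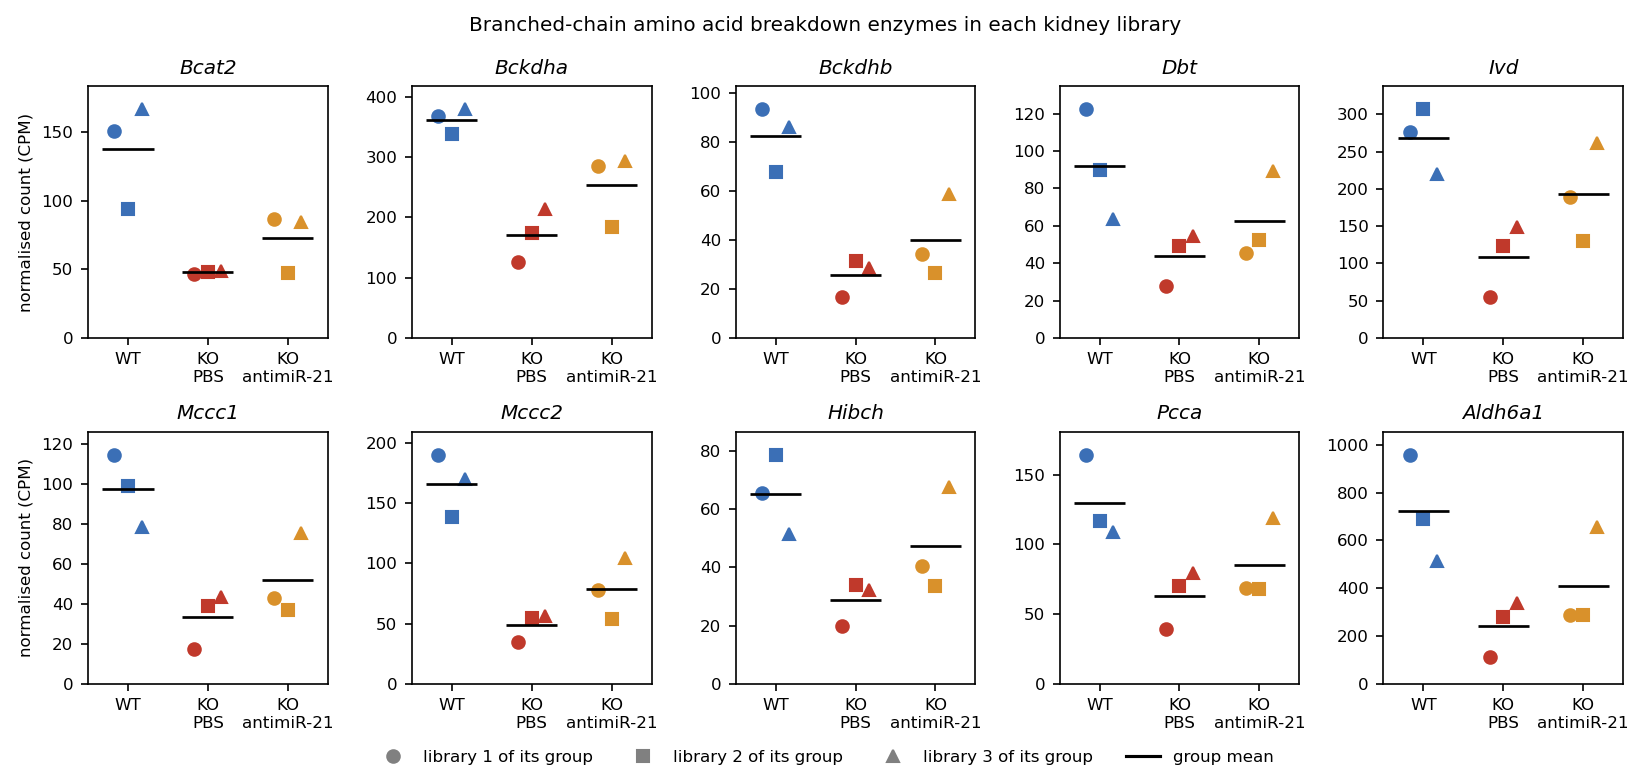
Normalised counts (CPM, linear axis from 0) of the 10 enzymes in each library; symbols mark libraries 1, 2 and 3 of a group and lines mark group means (n = 3). KO_PBS library 1 is the lowest of all 9 libraries in every panel, and in 9 of the 10 panels, Bcat2 being the exception, KO_antimiR21 library 3 is the highest knockout library.

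Bcat2, the mitochondrial transaminase that opens the pathway, was at 151, 94.1 and 167 CPM in WT libraries 1, 2 and 3, at 46.7, 48.0 and 48.5 in KO_PBS and at 86.9, 47.2 and 84.4 in KO_antimiR21. Its 3 KO_PBS libraries lay closer together than for any other member, whereas the male WT library was well below both female ones. Bcat2 fell 2.88-fold in KO_PBS (log2 -1.52 ± 0.27 SE; edgeR adjusted p = 0.0052). Over 21 alternative fits this log2 difference ran from -1.72 to -0.95, against -1.72 to -1.39 when each library was left out in turn.

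Of the 3 measured subunits of the BCKDH complex, Bckdha and Bckdhb fell in KO_PBS and Dbt did not pass the test. Bckdha was at 368, 338 and 380 CPM in the WT libraries, 127, 173 and 214 in the KO_PBS ones and 285, 183 and 294 in the KO_antimiR21 ones. Bckdhb, the E1 beta subunit that pairs with it, was at 93.3, 67.6 and 85.8 CPM in the WT libraries, 16.6, 31.2 and 28.5 in the KO_PBS ones and 34.1, 26.5 and 58.6 in the KO_antimiR21 ones. No knockout library reached the WT range of either gene. In KO_PBS, Bckdha fell 2.11-fold (log2 -1.08 ± 0.24; edgeR adjusted p = 0.012) and Bckdhb 3.23-fold (log2 -1.69 ± 0.33; edgeR adjusted p = 0.0077). Dbt, the E2 core of the complex that carries the lipoyl arm, was at 122, 89.7 and 63.5 CPM in the WT libraries, 28.0, 49.4 and 54.6 in the KO_PBS ones and 45.6, 52.4 and 89.5 in the KO_antimiR21 ones. Its lowest WT library was only just above its highest KO_PBS library, and its log2 difference of -1.06 ± 0.35 did not pass the edgeR test.

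Enzymes of the leucine branch were next. Ivd, isovaleryl-CoA dehydrogenase, was at 276, 307 and 220 CPM in the WT libraries, 54.5, 123 and 148 in the KO_PBS ones and 189, 130 and 262 in the KO_antimiR21 ones. Mccc1 and Mccc2 encode the alpha and beta subunits of the biotin-dependent methylcrotonyl-CoA carboxylase. Mccc1 was at 114, 98.7 and 78.4 CPM in the WT libraries, 17.2, 39.1 and 43.3 in the KO_PBS ones and 43.0, 37.0 and 75.1 in the KO_antimiR21 ones. Mccc2 was at 190, 138 and 170 CPM in the WT libraries, 34.4, 54.9 and 56.3 in the KO_PBS ones and 77.6, 53.9 and 105 in the KO_antimiR21 ones. KO_PBS 1 was the low library for all 3 genes, and both carboxylase subunits stayed below WT in every knockout library. Mccc2 had the largest fall of the 10, at 3.42-fold (log2 -1.78 ± 0.28; edgeR adjusted p = 0.0031). Mccc1 fell 2.93-fold (log2 -1.55 ± 0.38; edgeR adjusted p = 0.019) and Ivd 2.47-fold (log2 -1.30 ± 0.37; edgeR adjusted p = 0.035).

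In the valine branch, Hibch, which releases 3-hydroxyisobutyrate from its CoA ester, was at 65.6, 78.8 and 51.4 CPM in the WT libraries, 20.03, 33.8 and 32.2 in the KO_PBS ones and 40.5, 33.6 and 67.8 in the KO_antimiR21 ones. Aldh6a1, which makes propionyl-CoA from methylmalonate semialdehyde, was at 958, 691 and 515 CPM in the WT libraries, 112, 278 and 336 in the KO_PBS ones and 288, 289 and 655 in the KO_antimiR21 ones. Pcca, the biotin-carrying alpha subunit of propionyl-CoA carboxylase where the valine and isoleucine branches meet, was at 164, 117 and 109 CPM in the WT libraries, 39.2, 70.2 and 79.7 in the KO_PBS ones and 68.8, 68.1 and 119 in the KO_antimiR21 ones. For these 3 genes KO_antimiR21 library 3 lay within the WT range, and the other knockout libraries lay below it. In KO_PBS, Aldh6a1 fell 2.98-fold (log2 -1.58 ± 0.47; edgeR adjusted p = 0.040), Hibch 2.27-fold (log2 -1.19 ± 0.30; edgeR adjusted p = 0.022) and Pcca 2.06-fold (log2 -1.04 ± 0.32; edgeR adjusted p = 0.042). The calls for Aldh6a1 and Pcca were each lost in 9 of 21 alternatives, that for Ivd in 7 and that for Hibch in 5. In whole kidney, fewer cells of a type and less RNA per cell cannot be told apart.

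Sex is a limit on these calls. With sex as a covariate, which leaves WT library 2 as the only male wild type, edgeR called 0 of the 10 lower in KO_PBS and 0 of all tested genes; the 10 log2 differences were still negative, from -1.57 to -0.89, with a median of -1.43. Without WT library 1 the test called 4 of the 10, without WT library 2 it called 5, and without KO_PBS library 1 it called 5, with the median of the 10 between -1.58 and -1.12 over all leave-one-out fits.

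Other genes of the pathway were read from lists of enzymes, control genes, cofactor genes and carriers. Of 14 further enzymes 12 fell in KO_PBS and none rose. Among the 12, the call for Acat1 was lost in 11 of 21 alternatives, those for Dld and Pccb in 8 and those for Echs1 and Oxct1 in 5. The rest were lost in 2 or 3. Hibadh, the dehydrogenase that follows Hibch, fell 2.71-fold (log2 -1.44 ± 0.32; edgeR adjusted p = 0.013), and Oxct1, which activates ketone bodies, 2.85-fold (log2 -1.51 ± 0.40; edgeR adjusted p = 0.024). The smallest fall among the 12 was that of Hsd17b10 of the isoleucine branch, at 1.71-fold (log2 -0.78 ± 0.18; edgeR adjusted p = 0.014). The 2 that did not pass were Bcat1, the cytosolic transaminase (log2 -1.47 ± 0.54; edgeR adjusted p = 0.080), and Mut, methylmalonyl-CoA mutase (log2 -1.13 ± 0.67; edgeR adjusted p = 0.26). Mut ranged from 67.8 to 239 CPM among the WT libraries alone.

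Of 4 control genes 3 fell in KO_PBS and none rose. Bckdk, the kinase that inactivates the complex, was at 108, 91.0 and 106 CPM in the WT libraries, 65.6, 73.4 and 84.0 in the KO_PBS ones and 86.9, 74.9 and 89.9 in the KO_antimiR21 ones. Ppm1k, the phosphatase that reactivates it, was at 33.2, 37.3 and 36.2 CPM in the WT libraries, 15.8, 17.7 and 18.2 in the KO_PBS ones and 28.0, 20.7 and 36.9 in the KO_antimiR21 ones. Every Ppm1k library of KO_PBS was below every library of both other groups. In KO_PBS, Bckdk fell 1.37-fold (log2 -0.45 ± 0.14; edgeR adjusted p = 0.042) and Ppm1k 2.07-fold (log2 -1.05 ± 0.20; edgeR adjusted p = 0.0068). The Bckdk call was lost in 12 of 21 alternatives, among them leaving out WT 1, WT 3, KO_PBS 1 or KO_PBS 2, with edgeR adjusted p up to 0.47 and a log2 change of -0.17 without TMM scaling. Klf15, a transcription factor known to induce the pathway's genes, fell 2.95-fold (log2 -1.56 ± 0.38; edgeR adjusted p = 0.020), from 97.3 to 121 CPM in WT to 21.8 to 49.1 in KO_PBS, while the coactivator gene Ppargc1a did not pass the edgeR test (log2 -0.99 ± 0.61; adjusted p = 0.28). The Klf15 call was lost in 5 of 21 alternatives.

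Of 8 cofactor genes 2 fell and none rose in KO_PBS: Mmaa (log2 -1.004 ± 0.25; edgeR adjusted p = 0.020) and Mmab (log2 -0.75 ± 0.16; edgeR adjusted p = 0.011), both of which serve the cobalamin cofactor of methylmalonyl-CoA mutase. The Mmaa call was lost in 7 of 21 alternatives and the Mmab call in 2. Neither Hlcs, which attaches biotin to the carboxylases (log2 0.32 ± 0.18; edgeR adjusted p = 0.24), nor Btd, which recycles biotin (log2 -0.26 ± 0.20; edgeR adjusted p = 0.40), passed. Of 8 genes for carriers of branched-chain amino acids, 1 rose and 1 fell. Slc7a5, the transport subunit of the LAT1 exchanger, rose from 3.75, 4.61 and 4.18 CPM in the WT libraries to 15.6, 15.0 and 14.2 in KO_PBS (log2 1.83 ± 0.23; edgeR adjusted p = 0.0016). Tmem27, collectrin, which brings neutral amino acid carriers to the brush border, fell (log2 -1.004 ± 0.30; edgeR adjusted p = 0.039), a call lost in 13 of 21 alternatives, including leaving out any single WT or KO_PBS library, with adjusted p up to 0.23. Its partner Slc6a19 did not pass (log2 -1.41 ± 0.57; edgeR adjusted p = 0.11).

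**Figure D2:**
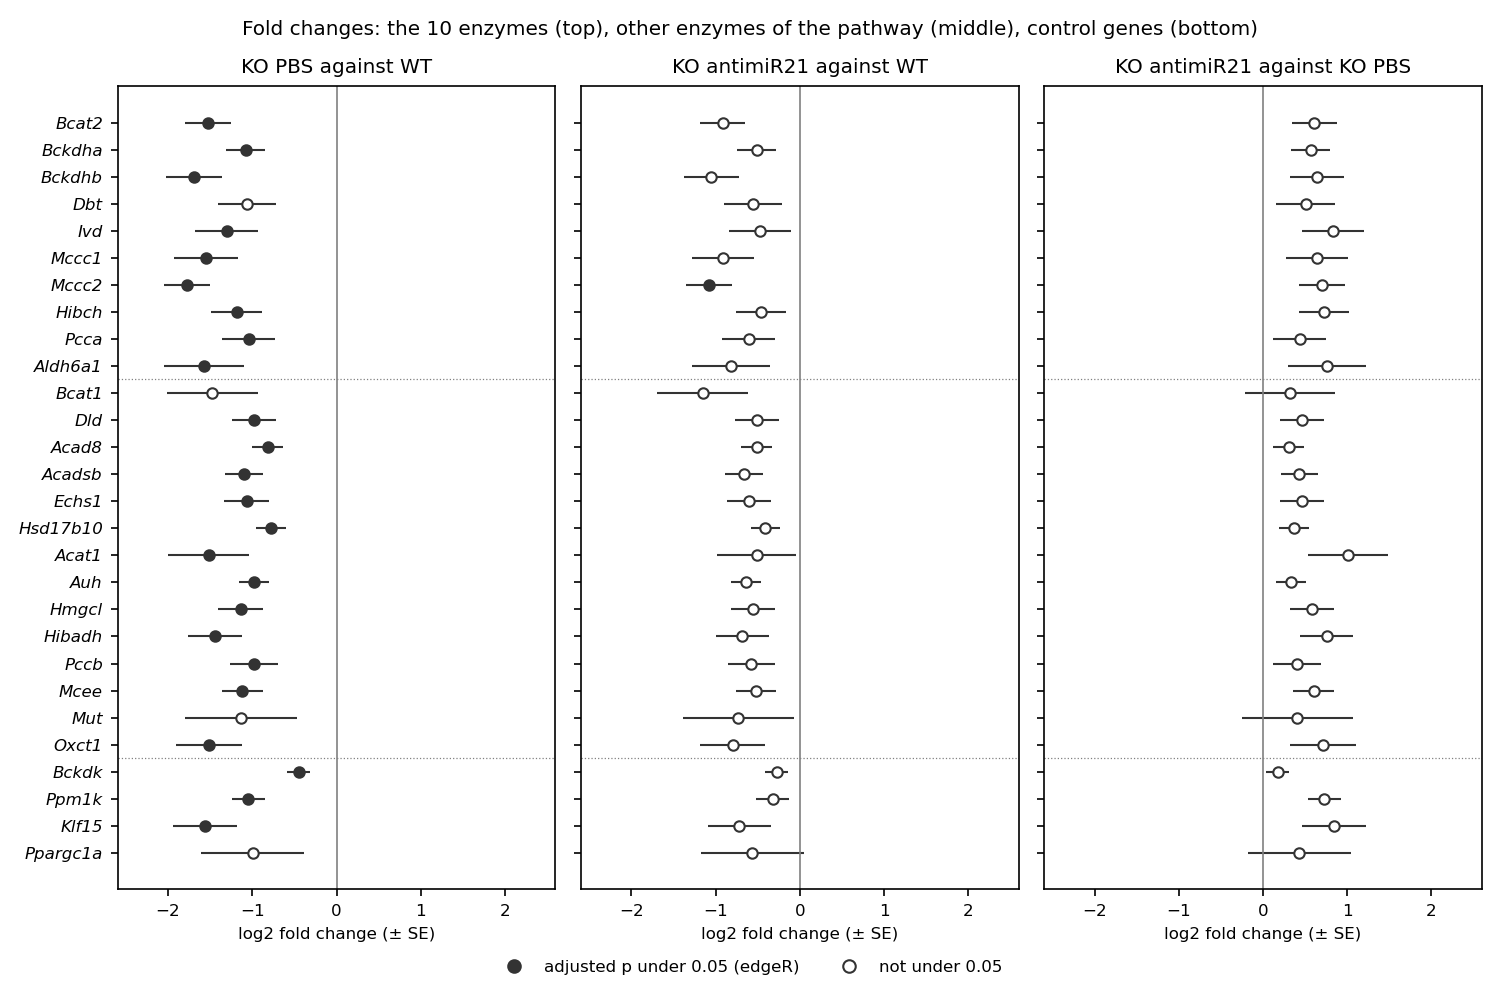
Log2 fold changes (points, ± SE) of the 10 enzymes, 14 other enzymes of the pathway and 4 control genes in the 3 comparisons; filled points passed an edgeR adjusted p under 0.05. Every point is negative in KO_PBS against WT and positive in KO_antimiR21 against KO_PBS, where none is filled.

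Ratios of 6 pairs of partner genes, which do not depend on how a library is scaled, were compared between groups, and no difference passed the test. The log2 ratio of Bckdha to Bckdhb was 1.98, 2.32 and 2.15 in WT, 2.93, 2.47 and 2.90 in KO_PBS and 3.06, 2.79 and 2.32 in KO_antimiR21. All 3 KO_PBS libraries were above all 3 WT libraries, by 0.62 on average. The KO_antimiR21 mean was 0.57 above WT, also without overlap, although library 3 exceeded the highest WT library by less than the rounding of these values. The log2 ratio of Bckdk to Ppm1k was 1.69, 1.28 and 1.55 in WT, 2.05, 2.05 and 2.20 in KO_PBS and 1.63, 1.85 and 1.28 in KO_antimiR21. Again no KO_PBS library overlapped WT, with a mean difference of 0.59, and none overlapped KO_antimiR21, whose mean was lower than that of KO_PBS (difference -0.51). For each of these 4 contrasts without overlap the exact two-sided permutation p was 0.10, the smallest that 3 libraries against 3 can give, and the value adjusted over the 18 contrasts was 0.45.

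Partners in the other 4 pairs overlapped between all groups. The 2 carboxylase subunits Mccc1 and Mccc2 differed in ratio by 0.16 between KO_PBS and WT (exact permutation p = 0.60), Pcca and its partner Pccb by -0.07 (exact permutation p = 0.50), Dbt and Bckdha by 0.04 (exact permutation p = 0.90) and Bcat1 and Bcat2 by -0.03 (exact permutation p = 0.80). Pcca to Pccb was the tightest, with an SD of 0.07 in WT and 0.13 in KO_PBS (n = 3). The Dbt to Bckdha ratio was lowest in KO_antimiR21 1 (-2.64) and WT 3 (-2.58), the same libraries in which transcripts of 5000 bases or more were lowest relative to those of 1500 or fewer (median shifts of -0.47 and -0.27 on the log2 scale). The part of that shift in the ratio was not tested.

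**Figure D3:**
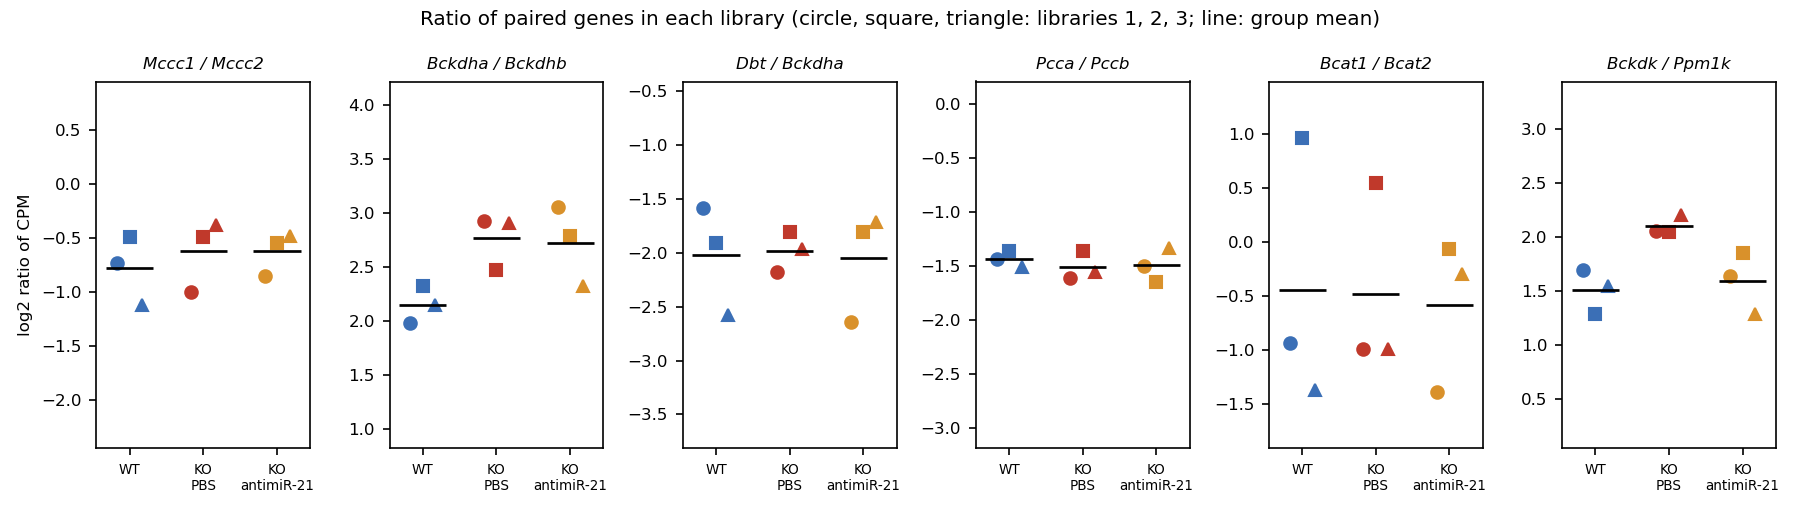
Log2 ratio of CPM of 6 gene pairs in each library, with group means as lines; every panel spans the same log2 range. The Bckdha to Bckdhb and Bckdk to Ppm1k ratios in KO_PBS lie above all WT values, and the other 4 pairs overlap.

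Other mitochondrial pathways and cell type markers moved with the enzymes. In KO_PBS against WT, 14 of 16 TCA cycle genes, 10 of 14 genes of mitochondrial fatty acid oxidation and 15 of 15 respiratory chain genes fell and none rose. Their median log2 changes were -0.85, -0.78 and -0.99. The median was -1.41 for the 10 enzymes, -1.11 for the 14 other enzymes of the pathway and -1.14 for all 24. No test compared these lists. Of 15 proximal tubule markers 8 fell and none rose, with a median of -1.59. The mean log2 level of the 10 enzymes relative to WT was -2.002, -1.19 and -1.07 in KO_PBS libraries 1, 2 and 3 and -0.87, -1.20 and -0.26 in KO_antimiR21. For the proximal tubule markers it was -2.72, -1.20 and -0.96 in KO_PBS and -0.90, -1.32 and -0.38 in KO_antimiR21. Both lists placed the 6 knockout libraries in the same order, with KO_PBS 1 lowest and KO_antimiR21 3 highest. This was not particular to the proximal tubule markers. The TCA cycle list had the same order, and KO_PBS 1 was lowest and KO_antimiR21 3 highest for fatty acid oxidation and the respiratory chain too.

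Markers of leukocytes and of fibroblasts and matrix moved the other way: 9 of 10 and 9 of 9 rose in KO_PBS. Their summed levels were 191 to 264 CPM and 380.0 to 437 CPM in WT, against 1172 to 1275 CPM and 2715 to 3342 CPM in KO_PBS, and 612 to 1378 CPM and 790.4 to 1828 CPM in KO_antimiR21. The proximal tubule sum was 15683 to 22524 CPM in WT, 2440 to 8220.0 in KO_PBS and 6443 to 13554 in KO_antimiR21. No marker of these 3 lists was at 0 counts in any library. Of other cell types, 4 of 8 distal markers (thick ascending limb, distal convoluted tubule), 4 of 7 of the collecting duct, 1 of 5 of endothelium and 0 of 5 of podocytes fell, and none of these rose. The part of cell composition in the enzymes' levels was not tested.

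**Figure D4:**
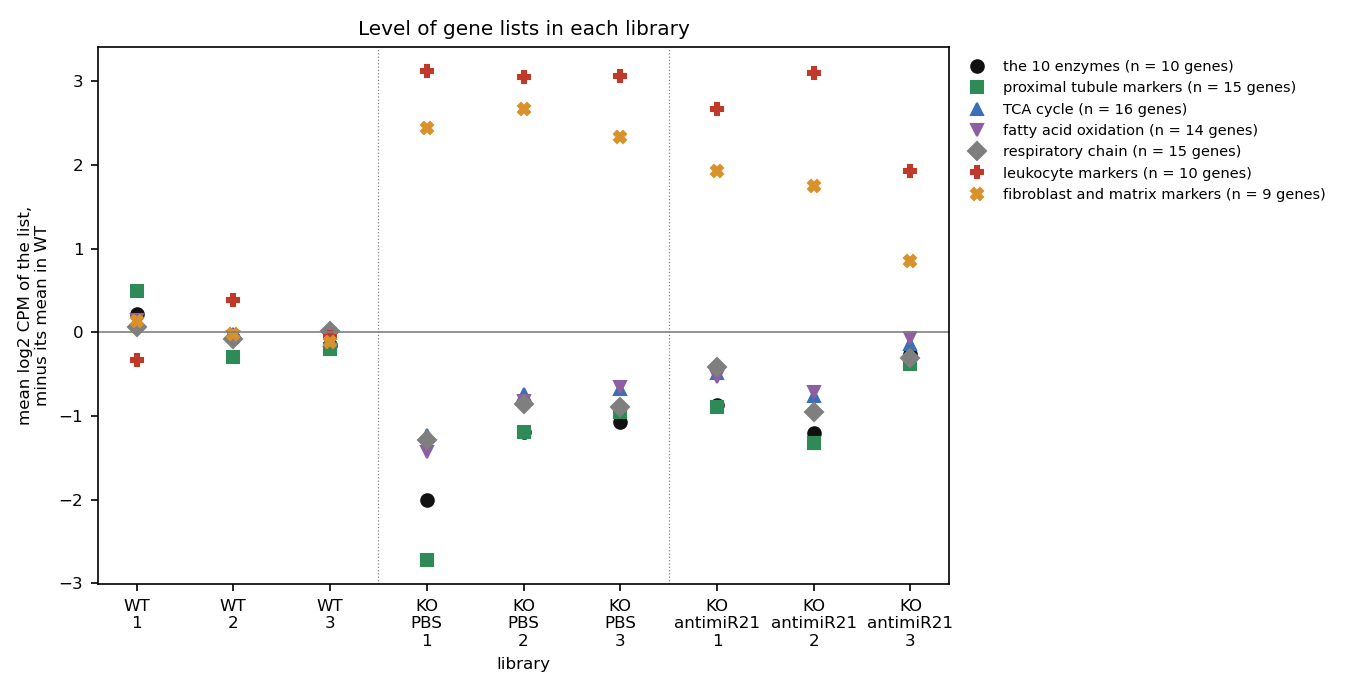
Mean log2 CPM of the 10 enzymes and of 6 other gene lists in each library, relative to the list's mean in WT. The enzymes lie from -2.002 to -1.07 in KO_PBS and from -1.20 to -0.26 in KO_antimiR21, with the largest gap to the proximal tubule markers in KO_PBS 1 (-2.72), while leukocyte and matrix markers lie above WT in all knockout libraries.

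The second comparison asked what the inhibitor did within the knockout. Its target is mmu-miR-21a-5p, a microRNA of chromosome 11, shown from RefSeq (GRCm38.p6) with its seed, bases 2 to 8, in capitals.

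mmu-miR-21a-5p: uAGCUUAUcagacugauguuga

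A match to the seed (ATAAGCT, or TAAGCTA with an A opposite base 1) was found in the 3' untranslated region of 0 of the 10 enzymes and in 11.9% of 17382 genes, taking each gene's longest annotated region, which was 180 to 2323 bases long for the enzymes. The median region over all genes searched was 1077 bases long. With only 10 enzymes few matches would be present at that share, and the difference was not tested.

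All 10 enzymes had higher fitted levels in KO_antimiR21 than in KO_PBS, with log2 differences from 0.44 (Pcca) to 0.83 (Ivd) and a median of 0.64, but 0 of 10 passed the edgeR test, and 0% of all tested genes were called higher (0 lower). At an unadjusted p under 0.05 in edgeR there were 4 of the 10 and 1203 of all genes, and DESeq2 called 12 genes lower and 6 higher, 0 of them among the 10. The lowest adjusted p among the 10 was 0.71 in edgeR. The median difference of 0.64 was 0.34 without KO_antimiR21 3 and 0.34 with library code as a covariate, and leave-one-out fits gave 0.34 to 0.88; for Pcca they gave 0.14 to 0.67 and for Ivd 0.53 to 1.16. No enzyme was free of overlap between these groups, against 3.83% of all genes with every KO_antimiR21 library above every KO_PBS library. The 3 inhibitor libraries were unlike each other: KO_antimiR21 3 was above every KO_PBS library for 10 of 10 enzymes and KO_antimiR21 1 for 6, whereas KO_antimiR21 2 lay within the KO_PBS range for all 10. KO_antimiR21 3 was also the inhibitor library with the lowest leukocyte and matrix levels (612 and 790.4 CPM summed), and KO_antimiR21 2 the one with the highest leukocyte level (1378 CPM); their part in the enzymes' levels was not tested. Outside the 10, Ppm1k was higher (log2 0.73 ± 0.20) and Slc7a5 lower (log2 -0.49 ± 0.22) in every KO_antimiR21 library than in every KO_PBS library, but neither passed (edgeR adjusted p = 0.71 for both). Over all 17315 tested genes, 1186 were lower without overlap in this comparison. Of the pathway lists, 1 of 4 control genes and 1 of 8 cofactor genes were higher without overlap, and 2 of 8 carriers lower.

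The third comparison, KO_antimiR21 against WT, shares the WT libraries with the first and the KO_antimiR21 libraries with the second. Only Mccc2 fell past the threshold (2.11-fold; log2 -1.08 ± 0.27; edgeR adjusted p = 0.048), so 1 of 10 enzymes was called, against 0.427% of all tested genes called lower. The median log2 difference of the 10 was -0.71, from -1.08 for Mccc2 to -0.46 for Hibch, beside -0.04 over all genes; with library code as a covariate the median of the 10 was -1.18. Bcat2 (-0.91 ± 0.27; edgeR adjusted p = 0.082) and Bckdhb (-1.05 ± 0.32; edgeR adjusted p = 0.098) had the next lowest adjusted p-values. In male libraries only, which leave WT 2 as the only WT library, the Bcat2 log2 difference was -0.34. In 5 of the 10, namely Bcat2, Bckdha, Bckdhb, Mccc1 and Mccc2, every inhibitor library was below every WT library, against 9.83% of all genes. The other 5 overlapped WT through KO_antimiR21 3 alone. Outside the 10, 0 of 14 other enzymes and 0 of 4 control genes were called, and Slc7a5 rose relative to WT (log2 1.35 ± 0.23; edgeR adjusted p = 0.0088). Calls upward were more common than calls downward here, with 1164 of the 17315 tested genes called higher and 74 lower. The Slc7a5 call was lost in 3 of 21 alternatives, namely sex as a covariate, male libraries only and library code as a covariate, with edgeR adjusted p up to 0.29. The Mccc2 call was lost with sex as a covariate (edgeR adjusted p = 0.43) and in 15 of 21 alternatives in all, with adjusted p from 0.0035 to 0.49 over them.

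The genes outside all lists whose profile over the 9 libraries was most like the mean of the 10 enzymes, by root mean square distance of centred log2 CPM, were Iyd (0.048), Mthfd1 (0.075), Mdh1 (0.075), Entpd5 (0.10) and Sgk2 (0.11). The 10 enzymes themselves lay from 0.16 (Mccc1) to 0.36 (Bcat2) from their own mean, so Bcat2 followed it least closely. These distances describe 9 libraries that differ in group, sex and library code at once.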

How the data were processed

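Per the submitters' processing notes the deposited values were made with Bowtie and RSEM on mouse genome mm9, and limma was also named; their versions, the annotation and the strand setting are not given in the sources used here. Reads of overlapping or antisense genes may therefore be shared. The authors deposited expected counts per gene symbol for each library and a log2 matrix, which equalled log2 CPM plus a constant per library. Expected counts were rounded to whole numbers. Genes were kept by edgeR's filterByExpr, scaled by TMM and fitted over all 9 libraries with 3 group means by the edgeR quasi-likelihood test, two-sided, with Benjamini-Hochberg adjustment over all 17315 tested genes and a threshold of 0.05. Ratios were tested by exact two-sided permutation. Lengths are of the longest GENCODE protein-coding transcript. Log2 levels of lists used a prior count of 2. The fit was also run on simulated counts with known changes in KO_PBS against WT. Those counts held no effect of sex or library code, so that run does not bear on these.

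The 10 enzymes and all lists were chosen with earlier results of these data known. Named genes are all 10 enzymes, genes of the 4 pathway lists past the threshold or needed for their role, and the 5 nearest profiles. Alternatives were other tools, the deposited log2 matrix, no filter, other sample sets, sex, library code, a replicate block and, added after seeing the data, a transcript length offset. Replicate numbers did not pair the libraries. Tests ran in edgeR 4.0.16, DESeq2 1.42.0 and limma 3.58.1 under R 4.3.3, and sequence searches and plots in Python 3.11.15 with numpy 2.4.6, matplotlib 3.10.9 and pandas 2.3.3.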

Additional observations from a re-analysis of the deposited data

How the results depend on the processing

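Of the 10 enzymes, 9 were called lower in KO_PBS than in WT. The count was 0 with sex as a covariate and 0 in male libraries only, and 4 to 10 when each library was left out in turn; in the other alternatives it was within 1.5 times the reported count, and all median log2 differences stayed negative, from -1.58 to -1.12. In both fits with sex, the lone male WT library is assumed to vary like the other groups. For KO_antimiR21 against WT, 1 enzyme was called; DESeq2 called 3, leave-one-out fits 0 to 2, and limma-voom, no filter on low counts, only the 2 groups compared, sex as a covariate, male libraries only, library code as a covariate, the replicate block and the transcript length offset called 0. For KO_antimiR21 against KO_PBS, 0 were called in all 21 alternatives. The replicate block called 7 lower in KO_PBS against WT. Same-numbered libraries did not deviate together (correlations from -0.51 to 0.48, 6 of 9 not over 0.1, and 1 of 9 libraries closest to its own number), so the numbers are not taken as pairs. Over single genes, 1155 values were recomputed: 155 lost the call, 13 gained it and 0 changed sign. Ratio differences were recomputed 144 times. In KO_PBS against WT, Bckdha to Bckdhb stayed between 0.53 and 0.77, Bckdk to Ppm1k between 0.48 and 0.68 and Pcca to Pccb between -0.15 and -0.03. Those of Mccc1 to Mccc2 (-0.01 to 0.34), Dbt to Bckdha (-0.24 to 0.26) and Bcat1 to Bcat2 (-0.55 to 0.67) changed sign. Counts of the 10 were no lower than 16.6 CPM in any library, and 3 libraries a group limit the precision.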
